A study of Caenorhabditis elegans with 6 samples.

Results

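UDP-glucuronosyltransferases (UGTs) of Caenorhabditis elegans were compared between worms kept on the International Space Station and worms kept on the ground. The family was taken as every gene whose symbol in the array platform's annotation is ugt followed by a number. It comprised 64 genes, read by 68 probe sets, of 17118 genes with a symbol of their own on the array. The RefSeq gene table lists 67 such genes, and all 64 measured genes matched it by identifier and symbol. For 3 of its ugt genes no probe set was analysed here, and 1 probe set that names several genes was left out.

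UGTs are enzymes of the endoplasmic reticulum membrane that move a sugar from a UDP-sugar donor onto small fat-soluble molecules. In mammals the sugar is usually glucuronic acid, while nematodes are also known for glucosides. In drug metabolism this conjugation belongs to phase II: cytochrome P450s and other oxidising enzymes first add or expose a reactive group, UGTs and glutathione S-transferases then attach a polar group, and ABC transporters export the product. Most of the worm's family members have no assigned substrate, and many were recognised by sequence alone.

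The space condition group was made of 3 arrays and the ground control group of 3 arrays, all with RNA from strain CC1, which was cultured in the bacteria-free medium CeMM. The flown population held worms of all stages and lived aboard the station for as many as 10 generations, with automated transfer into fresh medium roughly once per month. The ground population was passaged in parallel. The labels mention space radiation and microgravity for the flown worms, which these groups do not separate. The labels call the 3 arrays of each group technical replicates and do not say whether they share an RNA extract, so p-values here cover the spread between these 6 arrays alone, and that spread may be technical. The number of arrays limits the precision.

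Values are linear hybridisation intensities, and the brightness of a probe set depends on its probes, so it does not rank genes by transcript amount. Differences were tested with limma on the log2(intensity + 16) scale, as space minus ground, with Benjamini-Hochberg adjustment over 22548 probe sets. A gene rose or fell where the adjusted p was under 0.05 and the difference was at least 2-fold on that scale. Each gene was represented by its brightest probe set.

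Array medians ran between 111.9 and 119.3 for the space group and between 102.5 and 128.1 for the ground group. The actin control's 5′ to 3′ log2 ratio was -3.12 ± 0.164 on the space arrays, against -3.97 ± 0.358 for the ground group (SD, n = 3 each), and the groups did not overlap. The Gapdh ratio was -1.501 ± 0.561 on the space arrays, against -2.13 ± 1.41 for the ground group, and its groups overlapped. The poly-A controls, bacterial transcripts that can be added to the RNA before labelling, averaged 10.15 ± 0.290 on the space arrays, against 11.11 ± 0.0601 on the ground arrays (log2 intensity, 24 probe sets). The hybridisation controls averaged 10.03 ± 0.108 on the space arrays, against 10.47 ± 0.438 on the ground arrays (log2 intensity, 18 probe sets). Background was read from 8 controls whose sequences worms lack, which reached at most 86.7, with a median of 6.48.

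The UGT family divided between rises and falls. Of the 64 genes, 6 rose on the space arrays (9.38%), against 5.34% of all genes. Another 5 fell (7.81%), against 2.42% of all genes. Together 11 passed the test (17.2%), where 7.76% of all genes did. Disregarding size, 14 genes had an adjusted p under 0.05 (21.9%), against 9.64% of all genes. Disregarding p, 12 differed at least 2-fold (18.8%), against 10.4% of all genes. The 3 space values and the 3 ground values did not overlap for 28 genes (43.8%), 17 with space above and 11 with ground above, and they did not overlap for 31.4% of all genes. The UGT median log2 fold change was 0.07, against -0.02 over all genes, and the median size of the change regardless of sign was 0.50, against 0.36. The summed intensity of the 64 genes was 33223, 34718 and 32382 on the space arrays, and 29110, 26511 and 29159 on the ground arrays.

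The split between rises and falls depended on how the arrays were scaled. Scaled to the hybridisation controls, 10 of the 64 UGT genes rose and 2 fell. Of all 22548 probe sets, 2356 then rose and 153 fell, and the median of all probe sets moved to 0.33. Scaled to the poly-A controls, 28 UGT genes rose and 1 fell. Of all 22548 probe sets, 7244 then rose and 74 fell, and that median moved to 0.74. Against these shifts the UGT medians were 0.44 and 0.91. Of all called probe sets, 70.5% were higher on the space arrays as deposited, 63.4% after median centring, 58.9% after quantile normalization, 93.9% scaled to the hybridisation controls and 99.0% scaled to the poly-A controls. Quantile normalization and median centring each gave 6 UGT genes higher and 6 lower. The fall added to those of the deposited values was ugt-60 after quantile normalization and ugt-27 after median centring.

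**Figure D1:**
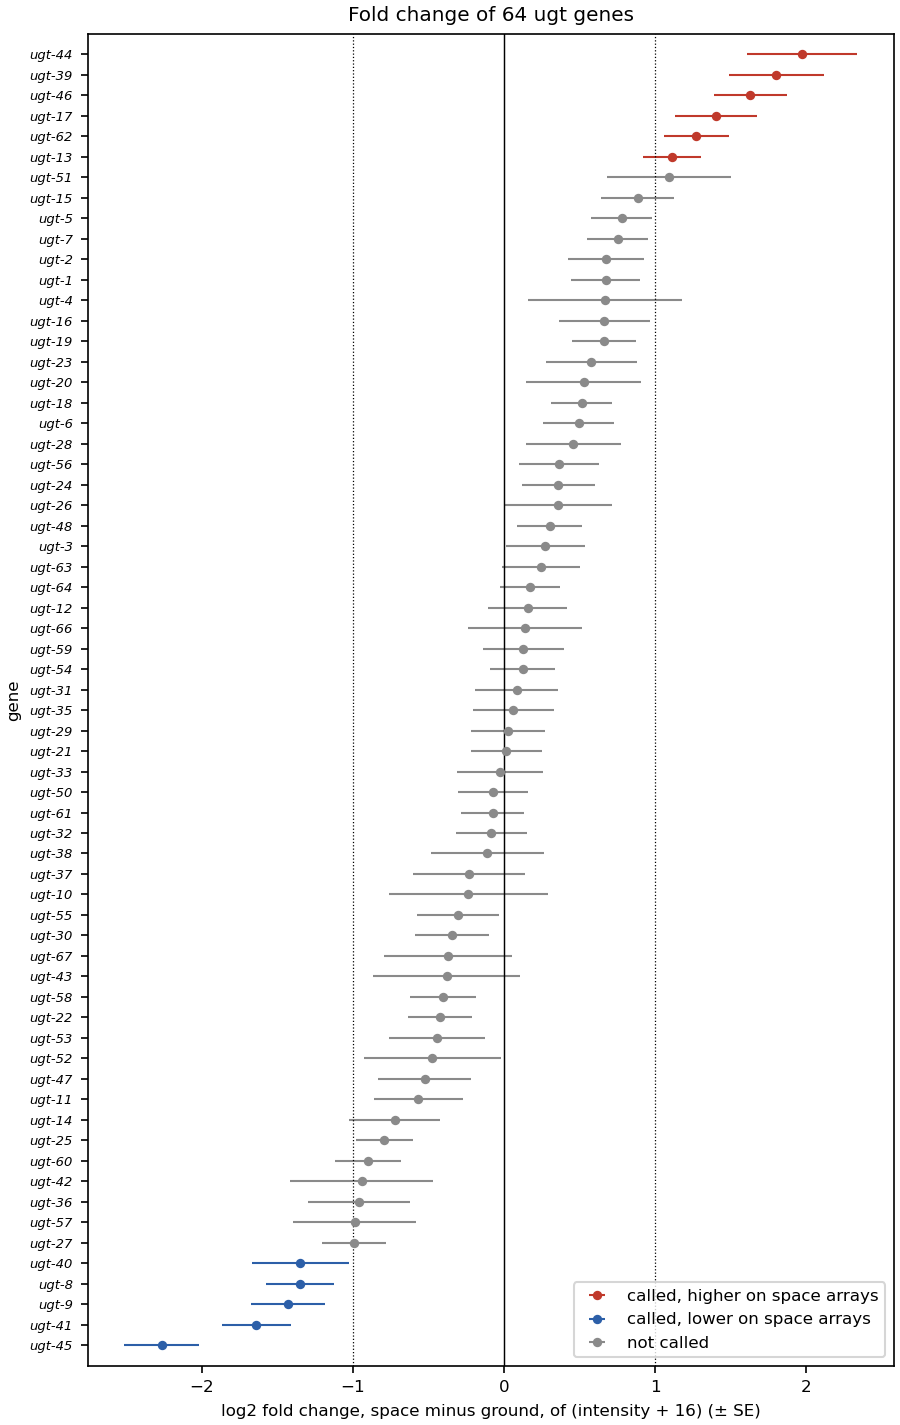
Log2 fold change (space minus ground, of intensity + 16) of the 64 ugt genes with standard errors, ordered by value; red genes rose, blue genes fell, grey genes did not pass the test, and dotted lines mark a 2-fold difference. The values ran between -2.27 for ugt-45 and 1.97 for ugt-44, and the 53 grey genes lay between -0.99 and 1.09.

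The 6 genes that rose were ugt-44, ugt-39, ugt-46, ugt-17, ugt-62 and ugt-13, all annotated by name alone as UGTs. Their linear folds of space over ground means were 2.17 to 4.54. Intensities of ugt-44 were 221, 265 and 170 on the space arrays, against 35.9, 23.2 and 85.5 on the ground arrays. The groups did not overlap, and all 3 ground values lay within the range of the absent-sequence controls, where the fold change is understated. Its log2 fold change was the largest rise of the family, 1.97 ± 0.365 (SE, adjusted p = 0.0187 by limma).

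ugt-39 read 1339, 1950 and 1399 on the space arrays, against 580, 277 and 494 on the ground arrays. The lowest space value exceeded the highest ground value, and the log2 fold change was 1.80 ± 0.313 (SE, adjusted p = 0.0154 by limma). For ugt-46 the brightest probe set read 2400, 2786 and 2441 on the space arrays, against 654, 758 and 1067 on the ground arrays. That difference was 1.63 ± 0.241 on the log2 scale (SE, adjusted p = 0.00916 by limma). A further probe set of ugt-46 read 1852, 1275 and 1090 on the space arrays, against 497, 470 and 376 on the ground arrays, a log2 fold change of 1.59 ± 0.259 (SE, adjusted p = 0.0122 by limma). Both probe sets of ugt-46 thus rose by similar amounts, but both carry the platform's mark for probes that can match more than 1 transcript, and signal from a related gene cannot be told apart there.

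ugt-17, whose only probe set has the same mark, gave 369, 445 and 248 on the space arrays, against 129, 97.1 and 138.5 on the ground arrays. The log2 fold change was 1.40 ± 0.269 (SE, adjusted p = 0.0208 by limma). ugt-62 gave 970, 1162 and 1118 on the space arrays, against 364, 457 and 505 on the ground arrays, and the space values were the tighter relative to their mean. On the log2 scale the rise was 1.27 ± 0.216 (SE, adjusted p = 0.0141 by limma). ugt-13 gave 3815, 3799 and 3912 on the space arrays, against 1791, 1611 and 1921 on the ground arrays. It was the brightest probe set among the called genes, with a log2 fold change of 1.11 ± 0.193 (SE, adjusted p = 0.0153 by limma).

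Single arrays decided several of these calls, always through the adjusted p and never through the direction. ugt-46 passed without any 1 array. ugt-39, ugt-62 and ugt-13 passed without space 1 or any 1 ground array, but had adjusted p values of 0.0624, 0.0645 and 0.0651 without space 2, and of 0.0535, 0.0610 and 0.0655 without space 3 (limma). ugt-17 missed the threshold without space 1, space 2, ground 1 or ground 2, with adjusted p up to 0.0787. ugt-44 missed it without any 1 array other than ground 3, with adjusted p up to 0.0727, and also with a pseudocount of 1 (adjusted p = 0.0540 by limma).

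**Figure D2:**
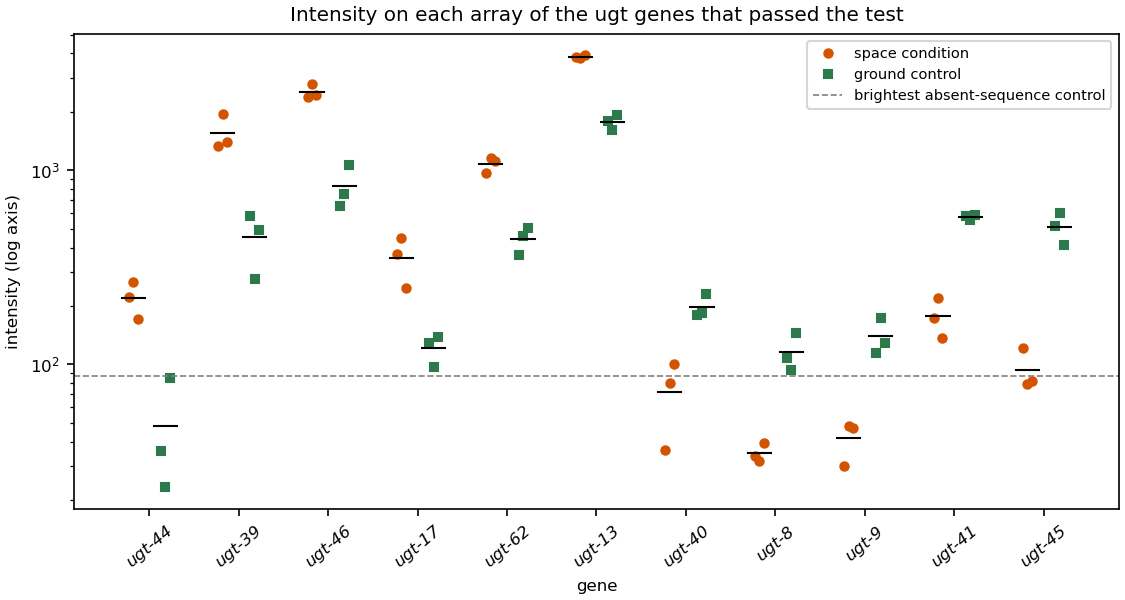
Intensity (log axis) of each ugt gene that passed the test on the 3 space arrays (orange circles) and the 3 ground arrays (green squares); horizontal bars are group means, and the dashed line marks the brightest absent-sequence control at 86.7. The 6 genes at the left have all space values above all ground values, and the 5 at the right have all space values below all ground values.

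The 5 genes that fell were ugt-45, ugt-41, ugt-9, ugt-8 and ugt-40. Their ground means were 115 to 574 and their space means 35.0 to 177, and their linear folds of ground over space were 2.74 to 5.44. ugt-45 read 120.9, 78.8 and 81.7 on the space arrays, against 517, 602 and 411 on the ground arrays. This was the largest change of any UGT gene, with a log2 fold change of -2.27 ± 0.248 (SE, adjusted p = 0.00482 by limma). ugt-41 read 174, 220 and 136 on the space arrays, against 583, 552 and 588 on the ground arrays. The highest space value was well below the lowest ground value, and the log2 fold change was -1.64 ± 0.228 (SE, adjusted p = 0.00806 by limma).

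For ugt-9 the arrays gave 29.8, 47.9 and 46.7 in space, against 114.7, 174.3 and 129.0 on the ground. For ugt-8 they gave 33.7, 31.9 and 39.3 in space, against 107.2, 93.5 and 145.3 on the ground. All space values of both genes lay within the range of the absent-sequence controls and all ground values above it. The log2 fold changes were -1.43 ± 0.245 for ugt-9 and -1.35 ± 0.224 for ugt-8 (SE, adjusted p = 0.0142 and 0.0131 by limma). ugt-40 gave 36.3, 79.7 and 100.9 in space, against 178.8, 184.1 and 231.2 on the ground. Its space values were the most spread of the 5 relative to their mean, and its log2 fold change of -1.35 ± 0.319 was the closest to the threshold (SE, adjusted p = 0.0405 by limma).

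ugt-45 and ugt-41 passed without any 1 array. ugt-8 missed the threshold without space 2 (adjusted p = 0.0612 by limma) and ugt-9 without space 3 (adjusted p = 0.0512 by limma). ugt-40 missed it without any 1 of the 6 arrays. With the array's mean 5′ to 3′ control ratio (actin and Gapdh) as a covariate, ugt-39, ugt-17, ugt-9 and ugt-40 missed the threshold, and their log2 fold changes were 1.84, 1.49, -1.32 and -1.08. A pseudocount of 64 in place of 16 left ugt-8, ugt-9 and ugt-40 under 2-fold, at -0.85, -0.94 and -0.97. Scaled to the hybridisation controls, only ugt-45 and ugt-41 of the falls passed, and scaled to the poly-A controls only ugt-45 did. All 5 remained lower on the space arrays under both scalings. With space 1 and ground 3 left out together, 0 of the 11 genes passed by limma. In that fit 23 of all 64 UGT genes had an unadjusted p under 0.05, as did 5176 of all 22548 probe sets.

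**Figure D3:**
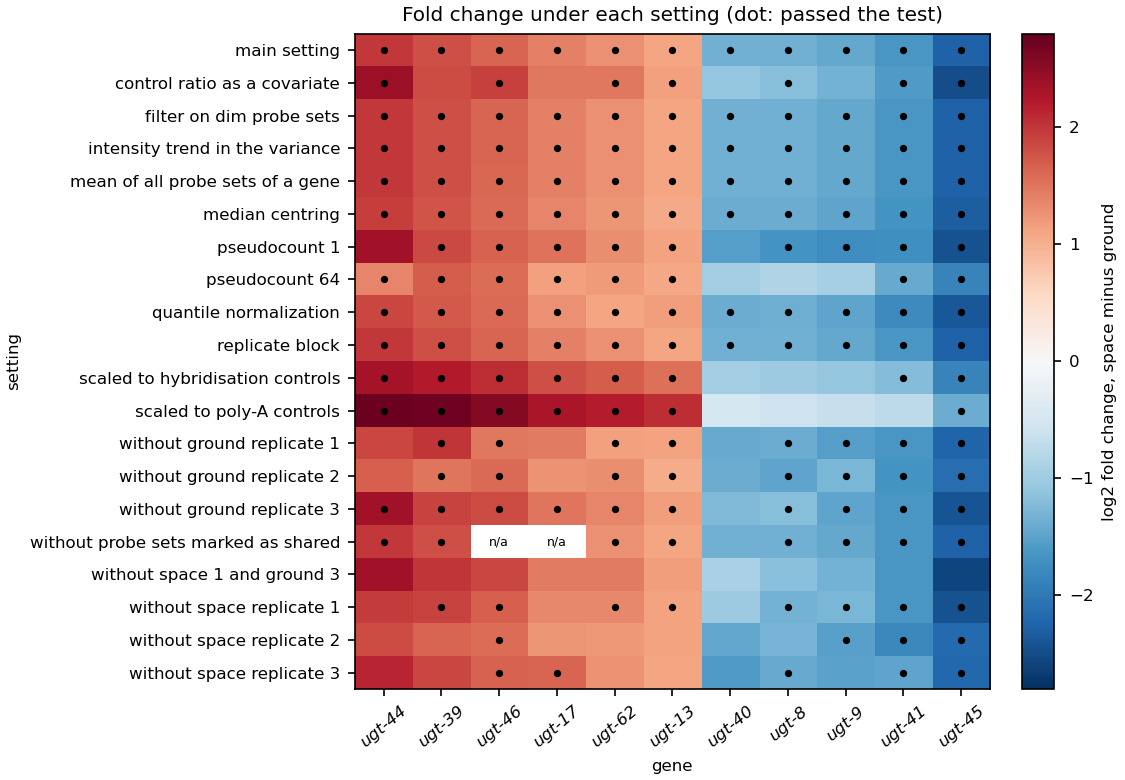
Log2 fold change (space minus ground, colour) of the 11 called ugt genes under the setting used and the 19 alternatives, with a dot where the gene passed the test and n/a where it had no probe set left. The colour of every column keeps its sign in all rows, and the row without space 1 and ground 3 has no dots.

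Both group means exceeded the brightest absent-sequence control for 33 UGT genes, of which 5 rose and 2 fell. For 13 genes 1 mean exceeded it, and of these 1 rose and 3 fell. For the other 18 genes neither mean did, and 0 passed the limma test, although 3 had an unadjusted p under 0.05. Of these, ugt-27 had an adjusted p under 0.05 and was short of 2-fold. Differences between values in this range are understated, and a missing call there does not show that a gene was without change. Among all genes of any brightness, 5.34% rose and 2.42% fell. Over the whole array, 1744 of 12774 probe sets passed with dim ones left out, against 1648 of 22548 with all kept. The counts by brightness were not set against all genes of the same brightness, so they are not particular to UGTs.

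Among the 8 brightest UGT probe sets, 2 rose, ugt-46 and ugt-13, and 0 fell by limma. No fall had an unadjusted p under 0.05 either, where 10.5% of all genes were lower. Of all genes of any brightness, 5.34% rose and 2.42% fell, so 8 probe sets are too few to show a lack of falls. ugt-58, the brightest, read 7313, 6074 and 5978 on the space arrays, against 10116, 7423 and 8163 on the ground arrays. The ugt-58 probe set carries the mark for shared probes, so signal from a related gene cannot be told apart there. It supplied 17.5% to 34.8% of the family's summed intensity on an array, and its difference of -0.40 ± 0.218 did not pass (SE, adjusted p = 0.311 by limma). Its sign turned when the arrays were scaled to the hybridisation or the poly-A controls, to 0.038 and 0.56, both below the shifted medians of all probe sets. ugt-7 read 2000, 2189 and 2087 on the space arrays, against 1242, 1388 and 1092 on the ground arrays. Its groups did not overlap, and at 0.75 ± 0.200 it was short of 2-fold and also just over the adjusted p threshold (SE, adjusted p = 0.0568 by limma). ugt-2 read 2059, 1810 and 1626 on the space arrays, against 1443, 858 and 1185 on the ground arrays, a difference of 0.67 ± 0.251 (SE, adjusted p = 0.144 by limma). The remaining bright members were ugt-23 at 0.58 (adjusted p = 0.292 by limma), ugt-12 at 0.16 (adjusted p = 0.777 by limma) and ugt-50 at -0.07 (adjusted p = 0.890 by limma), all with overlapping groups. The probe sets read here for ugt-12 and ugt-50 carry the mark too.

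Besides the 11 called genes, 3 had an adjusted p under 0.05 and were short of 2-fold, all lower on the space arrays. ugt-27 read 27.7, 44.2 and 34.9 in space, against 84.8, 92.7 and 80.7 on the ground, a log2 fold change of -0.99 ± 0.211 (SE, adjusted p = 0.0289 by limma). ugt-25 read 216, 227 and 204 in space, against 393, 372 and 393 on the ground, a log2 fold change of -0.79 ± 0.189 (SE, adjusted p = 0.0410 by limma). ugt-60 read 148, 175 and 138 in space, against 247, 332 and 330 on the ground, a log2 fold change of -0.90 ± 0.219 (SE, adjusted p = 0.0434 by limma). In each the highest space value lay below the lowest ground value. ugt-27 passed after median centring or with a pseudocount of 1, and ugt-60 passed after quantile normalization. In the opposite case, ugt-51 differed by 1.09 ± 0.408 without passing (SE, adjusted p = 0.146 by limma), with 109, 160 and 113 on the space arrays, and with ground 2 at 18.4 apart from the other ground arrays, which were at 64.9 or more. It is named as the only gene past 2-fold that did not pass. The probe sets of ugt-51 and ugt-60 carry the mark for shared probes. Of the 53 genes not called, 29 were positive and 24 negative, and 32 lay within 0.5 log2 units of 0.

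Of the 64 genes, 3 had more than 1 probe set, and for 2 of these the probe sets disagreed. The brightest probe set of ugt-48, which carries the mark for shared probes, read 111, 82.1 and 73.6 on the space arrays, against 68.9, 65.7 and 69.5 on the ground arrays. This difference did not pass, at 0.30 ± 0.215 (SE, adjusted p = 0.446 by limma). The unmarked probe set of the same gene read 122.0, 36.7 and 90.5 on the space arrays, against 17.3, 5.52 and 5.23 on the ground arrays. That probe set rose by 1.89 ± 0.380 on the log2 scale (SE, adjusted p = 0.0242 by limma), although both its group means, 83.1 and 9.33, were within the range of the absent-sequence controls. With marked probe sets left out, ugt-48 therefore joined the genes that rose.

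The 3 probe sets of ugt-50 also differed in direction, and the brightest and the dimmest carry the mark for shared probes. The brightest and another gave log2 fold changes of -0.07 and -0.28 (adjusted p = 0.890 and 0.434 by limma). The dimmest read 519, 446 and 430 on the space arrays, against 285, 214 and 244 on the ground arrays, a log2 fold change of 0.87 ± 0.210 (SE, adjusted p = 0.0427 by limma). No single direction can be given for ugt-50.

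**Figure D4:**
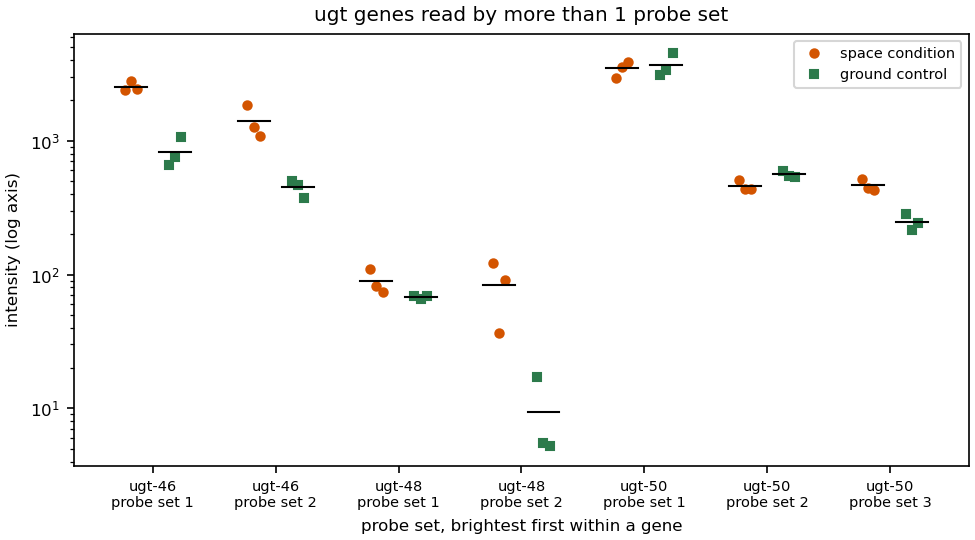
Intensity (log axis) of every probe set of ugt-46, ugt-48 and ugt-50 on the 3 space arrays (orange circles) and the 3 ground arrays (green squares), with group means as horizontal bars. Both ugt-46 probe sets are higher on the space arrays, while those of ugt-48 and ugt-50 differ in the size or the sign of the difference.

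Worm ugt genes often lie side by side. By RefSeq gene order, 37 of the 67 lay in 11 runs with no more than 5 other protein-coding genes between neighbours. Of the 36 measured in runs, 4 rose and 4 fell. Of the 28 measured outside runs, 2 rose (ugt-62 and ugt-46) and 1 fell (ugt-45). Among all genes, 5.34% rose and 2.42% fell. No test compared genes in runs with those outside, and shares for neighbouring genes of other families were not computed. The longest run held 8 genes in the order ugt-12, ugt-11, ugt-9, ugt-10, ugt-67, ugt-8, ugt-14 and ugt-13. Within it ugt-13 rose and ugt-9 and ugt-8 fell, and log2 fold changes ran between -1.43 and 1.11 with a median of -0.47. No other protein-coding gene lay between ugt-8, ugt-14 and ugt-13, and ugt-14 had a log2 fold change of -0.72 (adjusted p = 0.184 by limma).

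A run of 6 genes held ugt-40, ugt-37, ugt-38, ugt-39, ugt-41 and ugt-36, in which ugt-39 rose while ugt-40 and ugt-41 fell. The rise in ugt-39 and the fall in ugt-41, 1.80 and -1.64 on the log2 scale, were separated by a single other gene. ugt-37 and ugt-38 were at background in both groups. ugt-44 adjoined ugt-43, whose log2 fold change was -0.38 at background level, and ugt-17 lay 1 gene away from ugt-47, at -0.52 (adjusted p = 0.699 and 0.350 by limma). In 4 other runs of several measured genes all values were positive although 0 genes passed by limma. They held ugt-5, ugt-4, ugt-6 and ugt-3 at 0.27 to 0.78, ugt-18, ugt-16 and ugt-15 at 0.51 to 0.88, ugt-19 and ugt-20 at 0.66 and 0.53, and ugt-1 and ugt-2 at 0.67 each. Of these 11 genes, ugt-5, ugt-18, ugt-15, ugt-19, ugt-1 and ugt-2 had an unadjusted p under 0.05, where 15.1% of all genes were higher at that threshold. These runs are listed because all their values were positive, so their genes cannot be compared with that share. In other settings ugt-15 passed with the control ratio as a covariate. Scaled to the hybridisation controls ugt-5, ugt-16 and ugt-15 passed, and scaled to the poly-A controls all 11 did. The probe sets of ugt-5 and ugt-6 carry the mark for shared probes. Cross-hybridisation between neighbouring paralogues was not tested.

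**Figure D5:**
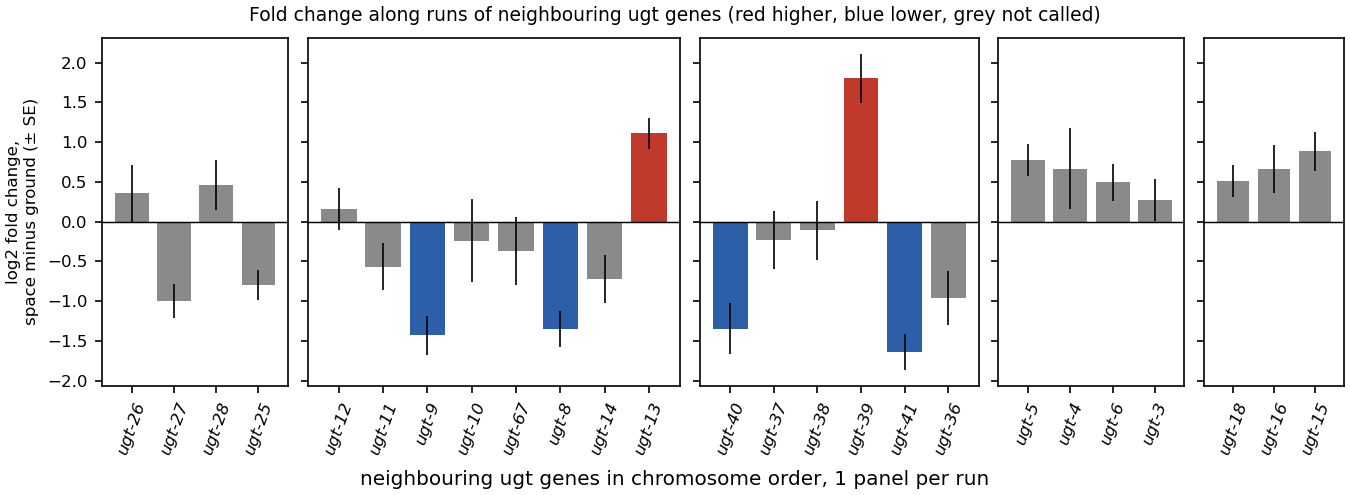
Log2 fold change (space minus ground, with standard errors) of ugt genes in the 5 longest runs of neighbours, in chromosome order, 1 panel per run; red bars rose, blue bars fell and grey bars did not pass the test. Rises and falls stand in the same run in the second and the third panel, and every bar is positive in the last panels, where 0 genes passed.

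The supply of the UDP-sugar donor showed a single call among 15 measured genes of 16 listed (6.67%, under the share of all genes), with a median log2 fold change of 0.02. pgm-1, a phosphoglucomutase, which interconverts the glucose phosphates upstream of UDP-glucose, fell. It averaged 2095 ± 123 on the space arrays, against 6384 ± 727 on the ground arrays (SD, n = 3 each), a log2 fold change of -1.60 ± 0.200 (SE, adjusted p = 0.00644 by limma). It missed the threshold when scaled to either set of controls. sqv-4, the UDP-glucose dehydrogenase that makes UDP-glucuronate, named after its values were seen, did not pass at -0.05 ± 0.312 (SE, adjusted p = 0.948 by limma). A list of other sugar-transfer genes had 24 measured of 25, not all of them UDP-sugar transferases, and 0 passed by limma. At an unadjusted p under 0.05, 1 was higher and 3 were lower (4.17% and 12.5%, against 15.1% and 10.5% of all genes). The median of this list was -0.16. Its brightest gene, the O-GlcNAc transferase ogt-1, differed by -0.67 ± 0.210 (SE, adjusted p = 0.0907 by limma). The probe sets of ogt-1 and sqv-4 carry the mark for shared probes.

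The enzymes before and after the UGTs in drug metabolism also had calls in both directions, read against 7.76% of all genes. Of 73 cytochrome P450 genes, 9 rose and 1 fell (13.7%), with a median of 0.14. The largest rises were in cyp-35B1 at 1.96 ± 0.232, cyp-35B2 at 1.92 ± 0.200 and cyp-37B1 at 1.90 ± 0.244 (SE, log2, adjusted p = 0.00576, 0.00461 and 0.00659 by limma). cyp-13B1, the brightest P450 probe set, rose by 1.29 ± 0.243 (SE, adjusted p = 0.0199 by limma), and cyp-35A4, named as the only fall, changed by -1.51 (adjusted p = 0.0143 by limma). Both cyp-13B1 probe sets carry the mark for shared probes, so signal from a related gene cannot be told apart there. Of 51 dehydrogenases and flavin monooxygenases, 3 rose and 3 fell (11.8%), with a median of 0.04. The alcohol dehydrogenase adh-1 averaged 5152 ± 1429 on the space arrays, against 481 ± 106 on the ground arrays (SD, n = 3 each), a log2 fold change of 3.36 ± 0.273 (SE, adjusted p = 0.00175 by limma). The flavin monooxygenase fmo-1 rose by 1.38 and dhs-27, named as a short-chain dehydrogenase, changed by -1.23, while the aldehyde dehydrogenase alh-8, the brightest, stood at -0.03 (adjusted p = 0.00950, 0.0213 and 0.963 by limma). The probe sets read here for fmo-1, dhs-27 and alh-8 carry the mark for shared probes. An unmarked probe set of fmo-1 rose by 1.36 (adjusted p = 0.0263 by limma).

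Glutathione S-transferases, the other phase II family examined, had 6 rises and 4 falls among 45 genes (22.2%), with a median of 0.27. gst-26 averaged 183 ± 47.2 on the space arrays, against 9.82 ± 3.46 on the ground arrays (SD, n = 3 each), and gst-27 averaged 2621 ± 262 on the space arrays, against 395 ± 137 on the ground arrays. The ground values of gst-26 were at background, and its fold change depends on the pseudocount and scaling, with 1.72 to 4.10 over the alternatives. The log2 fold changes of gst-26 and gst-27 were 2.93 ± 0.244 and 2.74 ± 0.293, and gst-13 rose by 1.97 ± 0.202 (SE, adjusted p = 0.00196, 0.00472 and 0.00450 by limma). The gst-27 probe set carries the mark for shared probes, so its rise may include signal from a related gene. The brightest, gst-1, did not pass at 0.29 (adjusted p = 0.438 by limma). No test compared UGTs with glutathione S-transferases or P450s.

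Of 57 ABC transporters, 3 rose and 4 fell (12.3%), with a median of -0.07. The half-transporter wht-7 rose by 1.99 ± 0.265 on a probe set marked for shared probes, while its unmarked probe set, at background, gave 0.44 (SE, adjusted p = 0.00725 and 0.466 by limma). The P-glycoprotein pgp-11 rose by 1.35 ± 0.205 and its relative pgp-8 changed by -1.27 ± 0.276 (SE, adjusted p = 0.00973 and 0.0310 by limma). mrp-5, a haem exporter of the worm intestine and the brightest of the list, did not pass at -0.28 (adjusted p = 0.502 by limma). The fall of pgp-8 missed the threshold in 11 of the 19 alternatives, without any change of sign. The calls of cyp-35A4 and dhs-27 were lost in 7 of 19 and 10 of 18 alternatives, and that of cyp-13B1 in 6 of 18, also with no change of sign. The number of called members ran between 0 and 33 for P450s, between 0 and 22 for glutathione S-transferases and between 0 and 21 for ABC transporters. In each list 0 passed by limma without space 1 and ground 3. The most passed when scaled to the poly-A controls, where 7318 of all 22548 probe sets passed. With alternatives added after seeing the data left out, at most 12 P450s, 12 glutathione S-transferases and 8 ABC transporters passed. Without space 1, space 2 or space 3, those 3 lists had 4 or 5, 5, and 2 called members.

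Of 26 measured regulators of detoxification genes, of 30 listed, 1 rose and 1 fell (7.69%, about the share of all genes), with a median of -0.05. skn-1, the worm's Nrf transcription factor, which activates phase II genes after oxidative and xenobiotic stress, averaged 2614 ± 299 on the space arrays, against 5824 ± 1245 on the ground arrays (SD, n = 3 each). It fell by 1.14 ± 0.233 on the log2 scale (SE, adjusted p = 0.0258 by limma). These skn-1 values came from a probe set with the mark for shared probes. Another bright skn-1 probe set, unmarked, gave -1.14 (adjusted p = 0.0221 by limma), and a dim one gave -0.09 (adjusted p = 0.911 by limma). nhr-28, a nuclear hormone receptor, rose by 1.13 ± 0.273 (SE, adjusted p = 0.0434 by limma), close to both thresholds, and its other probe set did not pass at 0.76 (adjusted p = 0.0641 by limma). xrep-4, an F-box protein that acts in the skn-1 pathway, did not pass at -0.43 (adjusted p = 0.285 by limma). Over the 19 alternatives the differences of skn-1 and nhr-28 kept their sign but missed the threshold in 11 and 12. Transcript levels do not measure the activity of these factors.

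The RNA came from whole worms of mixed stage, and marker genes of several tissues were compared between the groups. In such RNA, fewer cells of a type and less RNA per cell cannot be told apart. Of 23 measured markers of the intestine, in which many detoxification genes are expressed, 2 rose (cpr-1 and pept-1) and 0 fell by limma, 8.70% in all and near the 7.76% of all genes. Their median was 0.09, with a summed intensity of 52890 to 61321 on the space arrays, against 51902 to 66083 on the ground arrays. Of 18 germline markers, 11 rose (61.1%), with a median of 1.16 and a summed intensity of 17083 to 17716 on the space arrays, against 8232 to 9104 on the ground arrays. Of 16 hypodermis markers, 4 fell (25%), with a median of -0.50 and a sum of 5253 to 7414 on the space arrays, against 8712 to 11621 on the ground arrays. Of 13 body-wall muscle markers, 1 rose and 1 fell (15.4%), with a median of -0.46 and a sum of 32462 to 35862 on the space arrays, against 50565 to 53392 on the ground arrays. Of 17 neuron markers, 1 fell (5.88%, under the share of all genes), with a median of -0.36 and a sum of 28383 to 32297 on the space arrays, against 34570 to 40228 on the ground arrays.

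No marker mean was at 0, but both means were within the range of the absent-sequence controls for 0 intestine, 1 germline, 5 hypodermis, 1 muscle and 4 neuron markers. The part of these tissues, of developmental stage and of the control ratios in the UGT differences was not tested.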

How the data were processed

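RNA was hybridised to 6 Affymetrix arrays, 3 per group by the sample titles. Each deposited table lists a linear intensity for every probe set of 1 array. How the authors summarised and scaled them is not given in the sources, and raw scans were not used here. Array controls (77 of 22625 probe sets) stayed out of the tests. Among the 22548 tested, 20766 had 1 gene symbol, 887 several and 895 none. Intensities were tested as deposited on the log2(intensity + 16) scale in limma 3.58.1 under R 4.3.3 (lmFit, then eBayes), the design holding group only. Dim probe sets were kept, and the pseudocount understates their fold changes. RefSeq (WBcel235) gave names and gene order only. No sequences were used here.

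The members, gene lists, tests and thresholds were chosen with earlier results of these data known. Named UGT genes are those called, the 8 brightest, the 3 nearest to a call and those whose probe sets disagree. From each other list, up to 3 called genes with the largest changes and the brightest gene are named. Alternatives changed scaling, pseudocount, filters, variance model and arrays. The scalings to control probe sets were added after seeing the data. Plots used matplotlib 3.10.9 (Python 3.11.15).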

Additional observations from a re-analysis of the deposited data

How the results depend on the processing

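Across 19 alternatives, the 11 called UGT genes gave 207 values: 156 passed in the same direction, 51 kept the direction without passing and 0 reversed. Without any 1 array, called probe sets numbered 588 to 1201 in place of 1648, called UGT genes 4 to 11, higher 1 to 6 and lower 3 to 5, with UGT medians of -0.01 to 0.16. The fewest UGT calls came without space 2 (4) and space 3 (5). Without space 1 and ground 3 together, 0 probe sets and 0 UGT genes passed by limma, 0 higher and 0 lower, while 5176 probe sets and 23 UGT genes had an unadjusted p under 0.05. This fit has fewer samples. The control ratio as a covariate gave 1097 probe sets and 3 lower UGT genes, a pseudocount of 1 gave 1027 probe sets, a pseudocount of 64 gave 1148 probe sets and 2 lower UGT genes, and leaving out marked probe sets, which tests fewer genes, gave 905. Scaled to the hybridisation controls, 2509 probe sets passed, with 10 higher and 2 lower UGT genes and a UGT median of 0.44. Scaled to the poly-A controls, 7318 passed, with 29 UGT genes called, 28 higher and 1 lower, and a UGT median of 0.91. Signs turned for 12 uncalled genes among those named with their own value. ugt-50 reached 0.17 with the covariate, 0.17 as the mean of its probe sets, 0.043 after quantile normalization, 0.37 and 0.88 scaled to hybridisation and poly-A controls and 0.19 without space 1 and ground 3, and -0.18 to 0.083 without any 1 array. Under those scalings ugt-58 was 0.038 and 0.56, alh-8 0.41 and 0.93, mrp-5 0.16 and 0.68, xrep-4 0.0046 and 0.52, and sqv-4 0.38 and 0.89. Scaled to poly-A controls, ugt-25 was 0.12, ogt-1 0.28, ugt-14 0.054, ugt-43 0.18 and ugt-47 0.28. ugt-43 was 0.33 with the covariate and 0.35 without space 1 and ground 3. alh-8 was 0.053 after quantile normalization and -0.17 to 0.094 without any 1 array, ugt-12 -0.024 to 0.33, ugt-43 -0.82 to 0.064 and sqv-4 -0.26 to 0.23. Beyond fewer samples or genes, the cause was not tested. Deviations from the group means correlated over probe sets at 0.388, 0.058 and 0.171 between space and ground arrays of the same replicate number. Between arrays of different numbers they correlated at -0.280 to 0.159. The labels give no pairing beyond the number, and the main fit did not use it. With the replicate block, 1741 probe sets and 11 UGT genes passed, 6 higher and 5 lower. In that fit 6646 probe sets had an unadjusted p under 0.05, against 5553 in the main fit. Background intensity limits the 18 UGT genes with neither group mean above it.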
